A study of Ovis aries with 30 samples.

Results

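The chaperones, folding enzymes, stress sensors and disposal factors of the endoplasmic reticulum (ER) were followed in BAT and thyroid tissue of newborn lambs. The set held 44 named genes, taken by gene symbol from the count table, and 43 of them were among the 28524 genes of the table. EDEM2, a lectin of ER disposal, was not listed by symbol. By role, 13 of the listed genes were chaperones and their cofactors, 14 were disulfide and prolyl enzymes, 7 were sensors and transcription factors of the unfolded protein response, and 9 belonged to ER-associated degradation or translocation. DERL3 had 0 to 10 reads in a BAT library and was not tested there, so 42 genes were tested in BAT and 43 in thyroid tissue.

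RNA was sequenced from bulk BAT taken around the kidneys and from thyroid tissue of 15 twin-born Romney lambs of both sexes, 1 lamb per dam, which gave 30 libraries. Of these lambs, 6 stayed indoors with their dams for 2 days at 4 °C (cold), 6 stayed there equally long at an ambient temperature (AT) of 20–22 °C, and the remaining 3 were controls sampled within the first day, at about 24 h by the series' own description. The study left out 1 control, here Control 2, in both tissues, and the results below rest on Controls 1 and 3 unless stated. Any difference of a treated group from the controls is also a difference of 2 days of age and of housing, and these cannot be told apart, whereas the cold and AT lambs were sampled at the same age.

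The ER folds and modifies proteins that are secreted or placed in membranes. Unfolded proteins there are sensed by ATF6, by the kinase and RNase IRE1 (gene ERN1) and by the kinase PERK (gene EIF2AK3), which raise chaperones, folding enzymes and disposal factors and slow translation. Thyroid follicular cells make and secrete thyroglobulin, a very large glycoprotein that needs many disulfide bonds, and hypothyroidism can follow when it misfolds in the ER. Brown adipocytes secrete far less protein by mass, and their ER is also a site of lipid synthesis.

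Reads were counted per gene, and a normalized count is the deposited count divided by a size factor set by the 3 reference genes of the study (ACTB, RPL19 and HUWE1). A gene was called at an absolute log2 fold change (log2FC) of at least 1 with an adjusted p under 0.05 in a 2-sided quasi-likelihood test (edgeR), the p-values of all tested genes being adjusted by Benjamini-Hochberg. The library totals were 31556500 to 37025998 counts in BAT and 25062784 to 30124871 in thyroid tissue. A pair of genes, LOC114112617 and LOC114115287, took 43.8% to 76.5% of the counts of a BAT library, which left 8093700 to 18276329 counts for all other genes. Among the genes of the set, the median read count ran from 91.5 (UGGT1) to 4909 (ATF4) in BAT and from 230 (UGGT1) to 16086.5 (HSP90B1) in thyroid tissue. The lowest single value of a tested gene was 39 reads (ERO1B in BAT). TG, the thyroglobulin gene, stood at 30.7 normalized counts per kilobase in BAT and 144827 in thyroid tissue (means of the 12 treated lambs), and UCP1, the uncoupling protein of brown fat, stood at 6381 and 11.8, so on average both tissues carried their markers. Single BAT libraries of the treated lambs varied widely. UCP1 ran from 195 (AT 6) to 12953 normalized counts (AT 2), and TG from 9.47 (Cold 6) to 1108 (AT 1). SLC26A4, a thyrocyte transporter, was at 0 in the thyroid of the controls and cold lambs.

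Libraries that stood apart were found among the controls in both tissues. In thyroid tissue, Control 3 exceeded Control 1 by a median of 2.22 times over the 43 genes, from 0.822 times (ERO1A) to 9.22 times (SDF2L1), and by more than 2 times in 25 genes. Against the median of the 12 treated lambs, the genes of the set stood at a median of 3.46 times in Control 3, 1.62 times in Control 1 and 1.0 times in the left-out Control 2. On the log2 scale these medians were 1.79, 0.70 and 0.00, where all tested genes had 0.45, 0.16 and −0.13. Thyroid Control 3 was thus raised over all genes as well. It was above every treated lamb in 40 of 43 genes (42.2% of all genes), and Control 1 in 33 (19.5%). In BAT, Controls 1 and 3 lay close together, while Control 2 held HSPA5 at 62.8 times the treated median. The treated lambs varied less, with a median coefficient of variation over the genes of 22.1% in BAT and 18.6% in thyroid tissue, against 27.1% and 23.3% over all tested genes. Cold 4 was above every other treated lamb in BAT for 18 of 42 genes (10.8% of all genes).

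**Figure D1:**
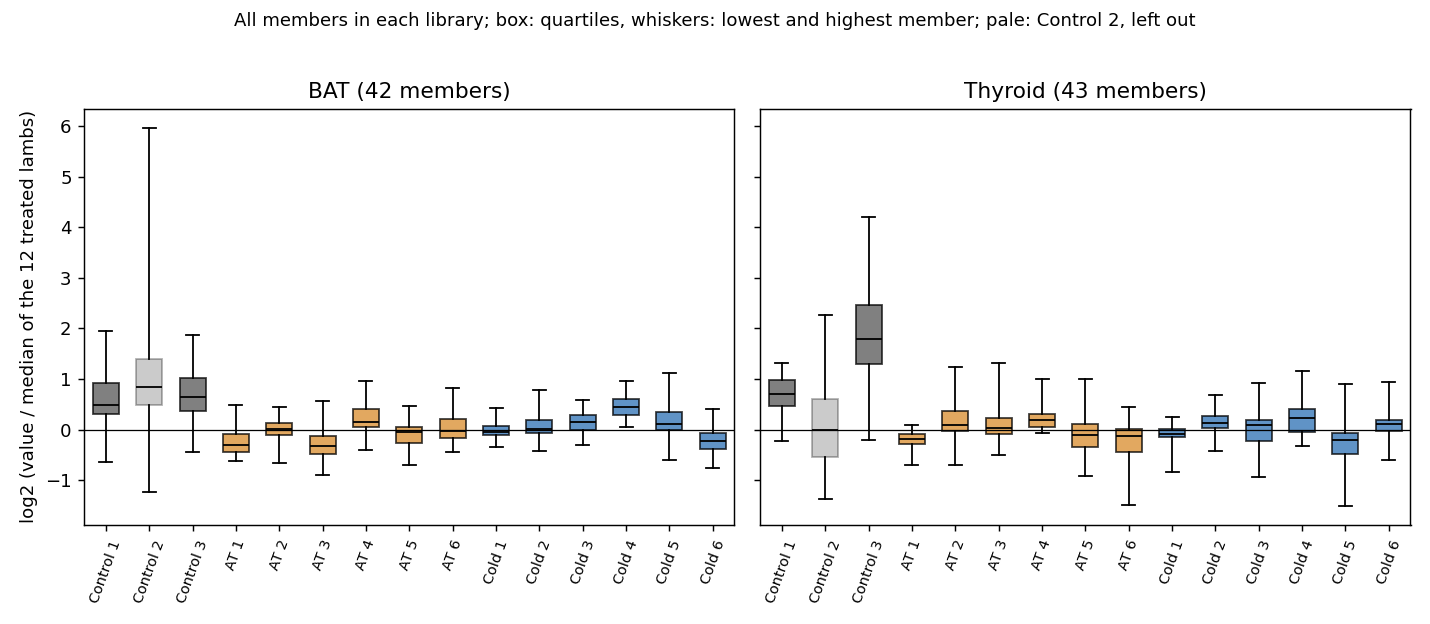
Each box summarises the genes of the set in 1 library as log2 of the normalized count over the median of the 12 treated lambs of that tissue (box, quartiles; whiskers, lowest and highest gene), with 42 genes in BAT and 43 in thyroid tissue. Thyroid Control 3 sits highest with a median of 1.79, thyroid Control 1 has a median of 0.70, and the left-out Control 2 has the widest range in BAT.

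In BAT, 9 of 13 chaperones and cofactors were downregulated at AT and 3 of 13 under cold, and most of the genes that passed the test were chaperones or their cofactors. Under cold, 4 of 42 genes were downregulated and 0 upregulated, where 0.624% and 0.577% of all 14905 tested genes were. At AT, 12 of 42 were downregulated and 0 upregulated, where the shares over all genes were 3.19% and 2.82%. The median log2FC of the set was −0.50 under cold and −0.63 at AT, and over all tested genes it was −0.10 and −0.03. Both comparisons use the same controls. All 4 genes called under cold were also called at AT.

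HSPA5 encodes BiP, the Hsp70 chaperone of the ER that also holds the stress sensors inactive. It stood at 5086 and 4767 normalized counts in BAT of Controls 1 and 3, at 849, 1310 and 2434 (lowest, median and highest) in the cold lambs, and at 703, 1324 and 2206 in the AT lambs. Both controls were above every treated lamb, and the cold and AT lambs covered nearly the same range. Its log2FC was −1.71 ± 0.36 (SE; edgeR adjusted p = 0.0323) under cold and −1.90 ± 0.36 (adjusted p = 0.00709) at AT. HYOU1, a large chaperone that exchanges the nucleotide of BiP, stood at 1707 and 1432 normalized counts in the controls, at 366, 452 and 595 in the cold lambs and at 372, 442 and 797 in the AT lambs. No treated lamb reached a control, and the log2FC was −1.73 ± 0.24 (adjusted p = 0.00569) under cold and −1.68 ± 0.24 (adjusted p = 0.00162) at AT.

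MANF, a secreted cofactor of BiP, stood at 616 and 529 normalized counts in the controls, at 139, 220 and 334 in the cold lambs and at 147, 171 and 260 in the AT lambs. The groups did not overlap, and the decrease of MANF passed under cold (−1.27 ± 0.28 in log2FC, edgeR adjusted p = 0.0371) and at AT (−1.62 ± 0.28, adjusted p = 0.00443). CRELD2, a folding factor induced by ER stress, stood at 802 and 623 normalized counts in the controls and between 127 and 433 in the 12 treated lambs. It was downregulated at AT (−1.82 ± 0.37, adjusted p = 0.00981) and missed the threshold under cold (−1.49 ± 0.37, adjusted p = 0.058). SDF2L1, which works with the J-proteins of BiP, was downregulated at AT (−1.07 ± 0.30, adjusted p = 0.0364), while its value under cold was −1.01 ± 0.30 (adjusted p = 0.0898).

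HSP90B1 encodes GRP94, the Hsp90 of the ER. It stood at 8896 and 9159 normalized counts in the controls, at 2360, 4242 and 8114 in the cold lambs and at 2563, 3042 and 5084 in the AT lambs. The highest cold lamb came close to the controls, and only the AT value passed the test (−1.43 ± 0.35, edgeR adjusted p = 0.0209, against −0.88 ± 0.36 and adjusted p = 0.205 under cold). Calreticulin (CALR), the soluble lectin chaperone, stood at 6232 and 7041 normalized counts in the controls, between 2182 and 4771 in the cold lambs and between 1990 and 3599 in the AT lambs. It was likewise called at AT (−1.27 ± 0.27, adjusted p = 0.0105), beside −0.97 ± 0.27 (adjusted p = 0.0713) under cold. UGGT1, the glucosyltransferase that returns misfolded glycoproteins to the lectins, was downregulated at AT (−1.25 ± 0.30, adjusted p = 0.0196), as was DNAJB11, a J-protein of BiP (−1.07 ± 0.23, adjusted p = 0.013). SIL1, another nucleotide exchange factor of BiP, went the other way: it stood at 274 and 316 normalized counts in the controls, between 315 and 444 in the cold lambs and between 334 and 636 in the AT lambs. The AT lambs did not overlap Controls 1 and 3, but the log2FC of 0.72 ± 0.23 missed the threshold (adjusted p = 0.0651). The left-out Control 2, at 538, lay above every cold lamb and within the AT range.

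Among the disulfide and prolyl enzymes, ERO1A had the smallest adjusted p of the set in BAT at AT. ERO1A is the oxidase that passes electrons from protein disulfide isomerases to oxygen, and its transcript is also raised by hypoxia. It stood at 826 and 594 normalized counts in Controls 1 and 3, at 232, 293 and 325 in the cold lambs and at 164, 214 and 241 in the AT lambs. Every treated lamb was below both controls, and the log2FC was −1.29 ± 0.19 (edgeR adjusted p = 0.00575) under cold and −1.79 ± 0.19 (adjusted p = 0.000237) at AT. Of the other 13 enzymes, PDIA4 (−1.19 ± 0.26, adjusted p = 0.0122) and PDIA6 (−1.05 ± 0.25, adjusted p = 0.02), both disulfide isomerases, were called at AT and none under cold. P4HB, the classical protein disulfide isomerase, had log2FC −0.25 ± 0.27 under cold and −0.38 ± 0.27 at AT (adjusted p = 0.672 and 0.397), and PPIB, a cyclophilin that isomerises prolines in collagen, had 0.07 ± 0.26 and −0.02 ± 0.26 (adjusted p = 0.918 and 0.968).

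No sensor or transcription factor and no disposal or translocation gene was called in BAT. By the adjusted p alone, 3 of the 7 sensors and factors passed at AT, where 6.1% of all genes did so in the lower direction. These were XBP1, the factor whose mRNA IRE1 splices (log2FC −0.93, edgeR adjusted p = 0.0442), ATF4, the factor translated when PERK is active (−0.75, adjusted p = 0.0279), and ATF6 (−0.70, adjusted p = 0.0401). Splicing of XBP1 and translation of ATF4 cannot be read from counts per gene. DDIT3, which encodes the pro-apoptotic factor CHOP, stood at 203 and 186 normalized counts in the controls, between 153 and 209 in the cold lambs and between 135 and 203 in the AT lambs, so its groups overlapped (−0.14 and −0.13, adjusted p = 0.753 and 0.723). HERPUD1, a membrane protein that assembles the degradation complex, overlapped as well (−0.23 and −0.29, adjusted p = 0.701 and 0.517). EDEM1, a lectin that takes glycoproteins to disposal, passed by the adjusted p alone at AT (−0.95, adjusted p = 0.0151).

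Without regard to size, 37 of 42 genes had a lower fitted mean than the controls in BAT under cold and 38 of 42 at AT. The treated lambs lay below both controls with no overlap in 22 genes under cold (15.7% of all genes) and in 27 genes at AT (15.3%). They lay above both in 0 genes under cold (8.89%) and in 1 gene, SIL1, at AT (8.96%). With Control 1 as the only control, the median log2FC of the set was −0.40 under cold and −0.49 at AT (all genes −0.05 and 0.01). With Control 2 in place of Control 3, 10 genes were called lower under cold and 16 at AT (3.62% and 3.25% of all genes). With Control 2 in place of Control 1, 11 and 17 were called lower (3.4% and 3.64% of all genes). Without Cold 1, 2, 3 or 6, the count under cold was 2, with HSPA5 at adjusted p = 0.0516 to 0.0596. With each lamb left out in turn (a control being replaced by Control 2), HYOU1 and ERO1A under cold, and HSPA5, HSP90B1, HYOU1, CALR, PDIA4, ERO1A, MANF and UGGT1 at AT, were called every time. Marker lists moved too: the summed normalized count of 6 fibroblast genes was 26371 and 27059 in the controls and 29749 to 177689 in the treated lambs, that of 6 endothelial genes 44499 and 48822 against 26987 to 51448, and that of 10 brown adipocyte genes 112271 and 112943 against 29609 to 124110. Their part in the differences was not tested, and in bulk tissue fewer cells of a type and less RNA per cell cannot be told apart.

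**Figure D2:**
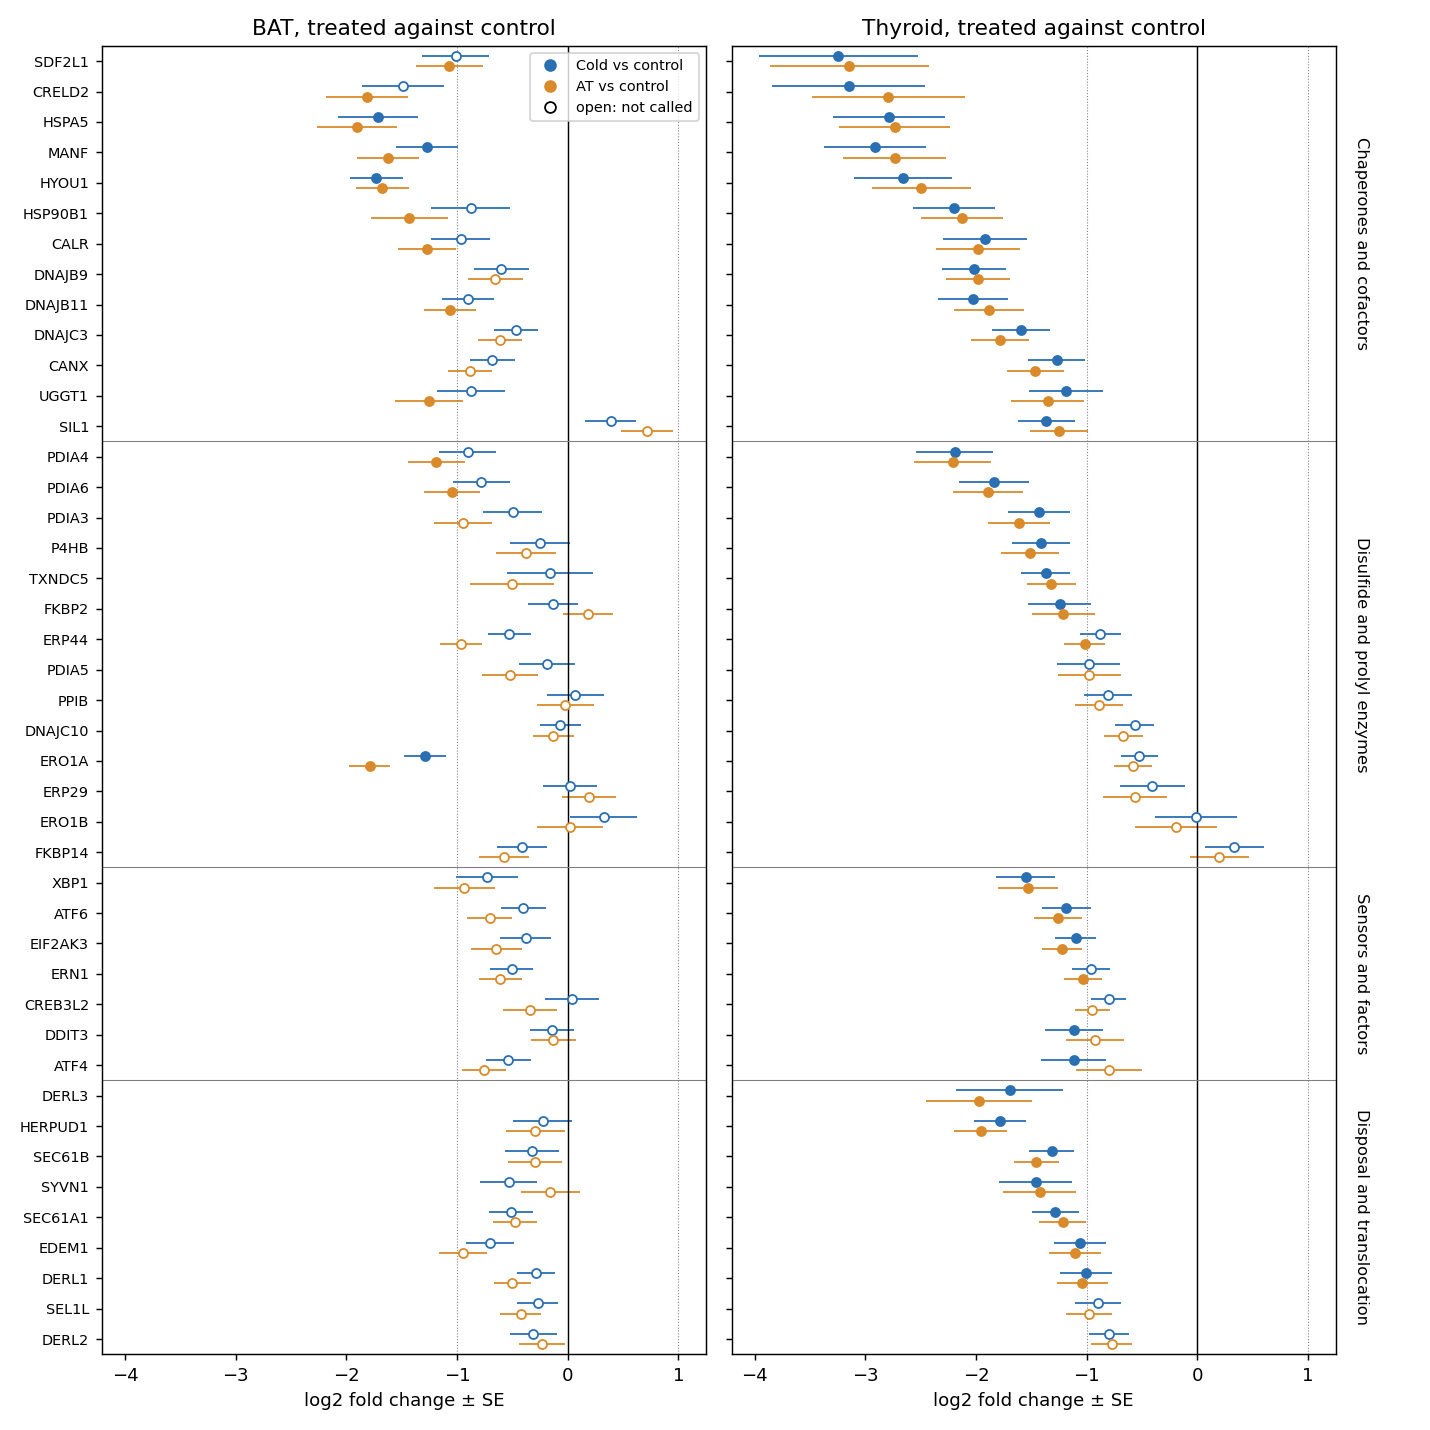
Log2 fold change ± SE of each gene against Controls 1 and 3 in BAT (left) and thyroid tissue (right), for cold (blue) and AT (orange), with filled points for called genes and dotted lines at the threshold. The lowest value of each comparison belongs to a chaperone or cofactor (HYOU1, HSPA5 or SDF2L1). In thyroid tissue 31 genes are called in each comparison, a count that falls to 5 (cold) and 4 (AT) with Control 2 in place of Control 3.

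In thyroid tissue, nearly the whole set was lower in the treated lambs, and the chaperones had the lowest median of the 4 roles. Under cold, 31 of 43 genes were downregulated and 0 upregulated (6.15% and 1.89% of all 16122 tested genes), and at AT also 31 and 0 (5.98% and 1.83%). All 13 chaperones were called in both comparisons, with a median log2FC of −2.03 under cold and −1.98 at AT. The disulfide and prolyl enzymes had 6 and 7 of 14 called, the sensors and factors 5 and 4 of 7, and the disposal and translocation genes 7 and 7 of 9. These counts rest on Control 3: with Control 2 in its place, 5 genes were called under cold (5.93% of all genes were downregulated) and 4 at AT (4.97%). With all 3 controls, 22 and 24 genes were downregulated (6.07% and 4.92% of all genes). With Control 1 as the only control, the median log2FC of the set was −0.64 and −0.70 (all genes −0.10 in both).

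HSPA5 shows the pattern of the chaperones. It stood at 11501 normalized counts in Control 1, 63874 in Control 3 and 7303 in the left-out Control 2, against 2744, 5424 and 9183 (lowest, median and highest) in the cold lambs and 3097, 5640 and 7913 in the AT lambs. Controls 1 and 3 were above all treated lambs, Control 3 far above the other controls, and Control 2 lay within the treated range. The log2FC was −2.79 ± 0.51 (edgeR adjusted p = 0.00409) under cold and −2.74 ± 0.51 (adjusted p = 0.00373) at AT. When Control 2 replaced Control 3 it was −0.79 (adjusted p = 0.202) and −0.73 (adjusted p = 0.252).

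SDF2L1 had the lowest fitted values of the set. It stood at 669 and 6166 normalized counts in Controls 1 and 3, at 117, 335 and 735 in the cold lambs and at 120, 366 and 640 in the AT lambs. Control 1 was exceeded by the highest cold lamb and lay just above the highest AT lamb, and Control 3 was far above both. The log2FC was −3.24 ± 0.72 (edgeR adjusted p = 0.0105) under cold and −3.15 ± 0.72 (adjusted p = 0.0104) at AT, and with Control 2 in place of Control 3 it was −0.71 (adjusted p = 0.458) and −0.60 (adjusted p = 0.555). CRELD2 stood at 1290 and 8699 normalized counts in the controls, at 232, 446 and 1151 under cold and at 207, 672 and 1225 at AT, with log2FC of −3.15 ± 0.69 and −2.79 ± 0.69. MANF stood at 1137 and 6178, at 286, 452 and 809 under cold and at 290, 538 and 731 at AT, with −2.91 ± 0.46 and −2.74 ± 0.46. For CRELD2 and MANF both controls were above all treated lambs, and Control 3 held 6.74 and 5.43 times the level of Control 1. Neither passed with Control 2 in place of Control 3: CRELD2 was −1.48 (edgeR adjusted p = 0.104) and −1.12 (adjusted p = 0.233), and MANF −0.89 (adjusted p = 0.113) and −0.71 (adjusted p = 0.22).

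HSP90B1 stood at 29266 and 98228 normalized counts in thyroid tissue of Controls 1 and 3, at 9324, 14667 and 17257 in the cold lambs and at 9611, 12838 and 23304 in the AT lambs. HYOU1 stood at 3707 and 18739, between 1070 and 2708 under cold and between 1204 and 2787 at AT. PDIA4, a disulfide isomerase found with BiP, stood at 4222 and 16074, between 1572 and 2721 under cold and between 1479 and 2853 at AT. For each of these, both controls were above all treated lambs, and the log2FC under cold and at AT was −2.20 ± 0.37 and −2.13 ± 0.37 for HSP90B1, −2.66 ± 0.44 and −2.49 ± 0.44 for HYOU1, and −2.19 ± 0.35 and −2.21 ± 0.35 for PDIA4. None of these 3 was called with Control 2 in place of Control 3, and PDIA4 passed by the adjusted p alone (−0.86 and −0.87, edgeR adjusted p = 0.0311 and 0.0309). The lectin chaperone CALR stood at 21862 and 73269 normalized counts in the controls and between 7824 and 16990 in the 12 treated lambs.

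Not all folding enzymes moved. ERO1B, the isoform of the ER oxidase found in secretory tissues, stood at 2860 and 2814 normalized counts in Controls 1 and 3, at 1761, 2300 and 4269 in the cold lambs and at 1654, 2237 and 4313 in the AT lambs. Its groups overlapped, and the log2FC was −0.02 ± 0.37 (edgeR adjusted p = 0.981) under cold and −0.19 ± 0.37 (adjusted p = 0.731) at AT. FKBP14, a prolyl isomerase that acts on collagens, had 795 and 807 in the controls, between 785 and 1521 under cold and between 567 and 1199 at AT (log2FC 0.33 ± 0.26 and 0.20 ± 0.26, adjusted p = 0.395 and 0.612), and was the 1 gene of the set with a higher fitted mean in the treated lambs. ERP29, a non-catalytic relative of the disulfide isomerases that binds thyroglobulin, had −0.41 ± 0.29 and −0.57 ± 0.29 (adjusted p = 0.342 and 0.17). ERO1A, called in BAT, had −0.53 ± 0.17 (adjusted p = 0.0409) and −0.58 ± 0.17 (adjusted p = 0.025) in thyroid tissue, below the threshold of size.

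Of the factors and disposal genes, HERPUD1, DDIT3, ATF4 and DERL3 were called under cold also with Control 2 in place of Control 3. HERPUD1 stood at 7615 normalized counts in Control 1, 20332 in Control 3 and 9356 in the left-out Control 2, at 3410, 4120 and 4761 in the cold lambs and at 3113, 3678 and 4028 in the AT lambs. All 3 controls were above every treated lamb, and the log2FC of −1.78 ± 0.24 (edgeR adjusted p = 0.0011) under cold and −1.96 ± 0.24 (adjusted p = 0.000596) at AT became −1.07 (adjusted p = 0.00269) and −1.24 (adjusted p = 0.00122) with Control 2 in place of Control 3. With Control 1 as the only control, HERPUD1 at AT was the single call of the set (−1.07, adjusted p = 0.0185), and its value under cold was −0.89 (adjusted p = 0.0514). DDIT3 stood at 686, 1205 and 2040 in Controls 1, 3 and 2, between 351 and 664 under cold and between 380 and 602 at AT. Again all 3 controls were above every treated lamb, and DDIT3 was called under cold (−1.11 ± 0.26, adjusted p = 0.0116) but not at AT, where the size fell short (−0.92 ± 0.26, adjusted p = 0.0238).

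ATF4 stood at 19628, 17432 and 26364 normalized counts in Controls 1, 3 and 2, at 7046, 8608 and 10128 in the cold lambs and at 7857, 8392 and 20775 in the AT lambs. The highest AT value belonged to AT 3, whose thyroid library also held 3230730 normalized counts of 7 skeletal muscle genes, against 111 in Control 3 and 278758 in Control 1. ATF4 was downregulated under cold (−1.12 ± 0.29, edgeR adjusted p = 0.0192). At AT its log2FC was −0.80 ± 0.30 (adjusted p = 0.0683), and without AT 3 it was −1.11 (adjusted p = 0.000227). XBP1 stood at 5223 and 10618 normalized counts in Controls 1 and 3, at 1868, 2679 and 3609 in the cold lambs and at 1981, 2681 and 3738 in the AT lambs, with Control 2 at 2508, within the treated range. Its log2FC was −1.55 ± 0.27 (adjusted p = 0.00294) and −1.53 ± 0.27 (adjusted p = 0.0026). The genes called in thyroid tissue whichever lamb was left out were DNAJB11, ATF4, DDIT3 and HERPUD1 under cold, and HERPUD1 and DERL3, a channel subunit of the degradation machinery, at AT.

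The treated lambs lay below both controls with no overlap in 34 of 43 genes under cold (28.5% of all genes) and in 37 of 43 at AT (21.7%). By the adjusted p alone, 40 and 39 of 43 genes were lower (16.9% and 18.8% of all genes). The median log2FC of the set was −1.28 under cold and −1.32 at AT, where all tested genes had a median of −0.28 in both. Relative to that shift the set stood at −1.0 and −1.04. With TMM scaling, where the medians over all genes were 0.02 and 0.05, it stood at −0.96 and −1.01. That scaling called 19 genes of the set lower in each comparison, and 2.08% (cold) and 1.67% (AT) of all genes. When Control 2 replaced Control 3, the median of the set was −0.42 under cold (all genes −0.05) and −0.38 at AT (all genes −0.02).

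Some markers of cell types also differed between the libraries. The summed normalized count of 11 thyrocyte genes was 2886571 in Control 1, 5904756 in Control 3 and 1933819 in Control 2, against 1331699 to 2721767 in the treated lambs. TG made up 2638971, 5344179 and 1559852 of these control sums, so they mostly reflect TG and say little about the other thyrocyte genes. TG alone was lower under cold (log2FC −0.90 ± 0.24, edgeR adjusted p = 0.0187, below the threshold of size) and at AT (−1.17 ± 0.23, adjusted p = 0.00464). The sum of 6 fibroblast genes was 14430 and 11849 in Controls 1 and 3 against 28745 to 141780 in the treated lambs, and that of 6 endothelial genes was 19938 to 30016 against 9228 to 21162. The sum of 6 plasma cell genes, another cell type rich in ER, was 1144 to 2624 in the controls and 1143 to 2463 in the treated lambs. The part of cell composition in the ER genes was not tested.

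**Figure D3:**
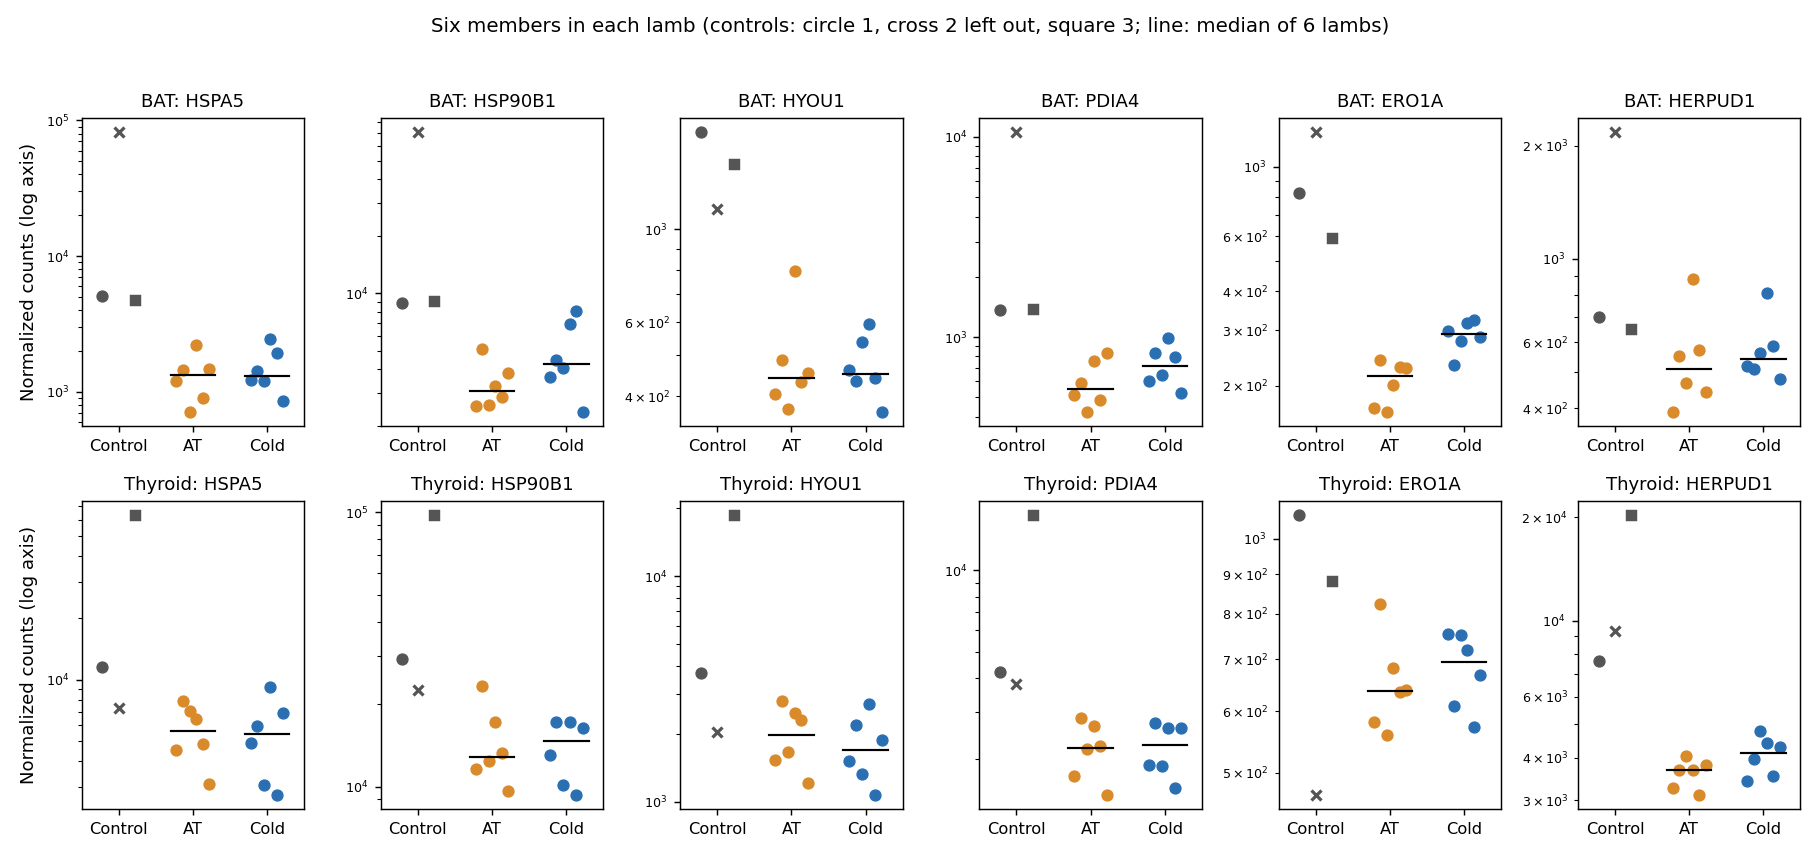
Normalized counts (log axis, not starting at 0) of HSPA5, HSP90B1, HYOU1, PDIA4, ERO1A and HERPUD1 in each lamb, BAT above and thyroid tissue below, with Controls 1 (circle), 2 (cross, left out) and 3 (square) and a line at the median of 6 lambs. Control 2 is highest for HSPA5 in BAT (82208) and Control 3 in thyroid tissue (63874), and the AT and cold lambs overlap in every panel.

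The left-out Control 2 differed between its tissues. In BAT it held 82208 normalized counts of HSPA5, 71077 of HSP90B1, 10583 of PDIA4 and 1136 of DNAJB9, a J-protein of BiP, which were 16.2, 7.99, 7.79 and 6.03 times the values in Control 1. HYOU1 (1119) and CRELD2 (383), which were lower in the treated lambs together with HSPA5, stood in the same library at 0.655 and 0.477 times Control 1. In thyroid tissue of the same lamb, HSPA5 was the lowest of the 3 controls, and 34 of 43 genes were below both other controls. The share of all genes below both was not counted. Against all 12 treated lambs, 12 of the 43 genes were lower (32.4% of all genes) and 11 higher (23.9%). Its markers also stood apart. In thyroid tissue the summed normalized count of 3 parathyroid genes was 9217 (31.9 to 1253 in the other libraries) and that of 10 brown adipocyte genes 24105 (2399 to 12220). In BAT the brown adipocyte sum was 371194 (112271 and 112943 in Controls 3 and 1) and the endothelial sum 13932 (44499 and 48822). Their part in the values that use Control 2 was not tested.

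Whether the difference from the controls was larger in thyroid tissue than in BAT was tested by an interaction in 1 fit of both tissues. The point estimate was more negative in thyroid tissue for 41 of 43 genes both under cold and at AT, but few passed. Under cold, 1 gene passed, SIL1 (difference −1.79 ± 0.37 on the log2 scale, edgeR adjusted p = 0.0437), where 0.182% of all 17021 genes passed in either direction. At AT, 3 passed (1.66% of all genes): SIL1 (−2.02 ± 0.37, adjusted p = 0.00609) and HERPUD1 (−1.72 ± 0.40, adjusted p = 0.0269), lower in thyroid tissue, and ERO1A (1.16 ± 0.25, adjusted p = 0.0187), for which the decrease was larger in BAT. With both tissues of a lamb paired in the fit, HERPUD1 no longer passed (−1.501, adjusted p = 0.0584). For HSPA5 the interaction was −1.11 ± 0.72 under cold and −0.89 ± 0.72 at AT (adjusted p = 0.57 and 0.541), and with Control 2 in place of Control 3 it was 4.02 under cold and 4.20 at AT (adjusted p = 0.0341 and 0.0148). The median over the set was −0.91 under cold and −0.79 at AT (all genes −0.27 and −0.31), and with that replacement 0.29 and 0.35, while with Control 1 as the only control it was −0.20 and −0.16, so that its size and direction depended on which controls were used. Under cold, leaving out Cold 1, 2, 3, 5 or 6 or AT 1 or 2 took the call of SIL1 away, with 0 genes passing. Without AT 3, 2 genes passed under cold and 7 at AT.

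Against Controls 1 and 3, SIL1 behaved differently from the other BiP cofactors in the 2 tissues. In thyroid tissue it stood at 2694 and 6015 normalized counts in Controls 1 and 3, between 1263 and 2075 in the cold lambs and between 1245 and 2300 in the AT lambs, all below the controls. In BAT the AT lambs lay above both controls, and the lowest cold lamb (315) lay just under Control 3 (316). Control 2 stood at 538 in BAT, above every cold lamb and within the AT range, so the direction in BAT depended on the controls used. The interaction of SIL1 with Control 2 in place of Control 3 was −0.88 (edgeR adjusted p = 0.21) under cold and −1.16 (adjusted p = 0.0641) at AT, while that of ERO1A at AT was 2.04 (adjusted p = 0.00365). With Control 1 as the only control, no interaction of a gene of the set passed.

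Cold against AT compares lambs of the same age and housing. In BAT, edgeR called 0 of 42 genes (0.275% of all genes), DESeq2 also called 0, and 4 genes had an unadjusted p under 0.05. The log2FC ran from −0.38 (SYVN1, the ubiquitin ligase HRD1 of ER disposal) to 0.55 (HSP90B1, ± 0.27, edgeR adjusted p = 0.418), and 33 of 42 were positive with a median of 0.19 (all genes −0.05). ERO1A was 0.50 ± 0.14 higher in the cold lambs on the log2 scale (adjusted p = 0.184). Its cold values of 232 to 325 overlapped the AT values of 164 to 241 normalized counts, and no gene of the set had separate groups in either direction (0.537% and 0.154% of all genes did).

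In thyroid tissue, edgeR called 0 of 43 genes for cold against AT (0% of all genes), DESeq2 called 0, and none had an unadjusted p under 0.05. The log2FC lay between −0.36 (CRELD2, ± 0.54) and 0.28 (DERL3, ± 0.37), with a median of 0.05 (all genes 0.00). The SE ran from 0.12 for CREB3L2 and ERO1A to 0.56 for SDF2L1. Missing the threshold does not show that both temperatures gave equal levels.

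Thyroid tissue was set against BAT of the same lambs on a common scale. In the treated lambs, most of the set did not differ by the threshold. The share of the set called higher in thyroid tissue was below the share of all genes. At AT, 3 of 43 genes were higher in thyroid tissue and 0 lower (12.9% and 26.8% of all 17021 genes), and under cold 3 were higher and 1 lower (13.3% and 26.6%). The genes higher in both were ERO1B, HERPUD1 and DERL3, the last of which entered the fit only through its thyroid reads, and the gene lower under cold was PDIA5, a disulfide isomerase. The median log2 difference of the set was 0.17 at AT and 0.05 under cold, against −0.35 and −0.33 over all genes, so that relative to all genes the set stood 0.53 and 0.39 higher in thyroid tissue.

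ERO1B stood at 75.6 ± 18.7 normalized counts per kilobase in BAT and 833 ± 313 in thyroid tissue (mean ± SD, n = 12 treated lambs). It was higher in thyroid tissue in 12 of 12 lambs, with a log2 difference of 3.52 ± 0.26 (edgeR adjusted p = 9.46e-12) at AT and 3.41 ± 0.26 (adjusted p = 1.15e-11) under cold. Its relative ERO1A stood at 87.9 ± 17.9 and 91.3 ± 11.5 per kilobase, so that in thyroid tissue ERO1B exceeded ERO1A while in BAT both were within their spread of each other. HERPUD1 stood at 484 ± 130 per kilobase in BAT and 1262 ± 160 in thyroid tissue, again higher in 12 of 12 lambs (1.32 ± 0.20 at AT and 1.44 ± 0.20 under cold). DERL3 summed to 23 reads over the 6 BAT libraries at AT and 12 under cold, against 1573 and 1991 reads over the thyroid libraries. At 0 to 10 reads per BAT library, which reached the filter's 10 reads in 1 of 15, a gene kept for its thyroid reads had to differ, so its calls are no support and no fold is given.

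The other differences were smaller. DNAJB9 was higher in thyroid tissue in 12 of 12 treated lambs (116 ± 23.8 per kilobase in BAT and 184 ± 41.4 in thyroid tissue), and PDIA3, FKBP14, SIL1, XBP1 and CREB3L2, a transcription factor of secretory cells, in 11 of 12. PDIA5, DNAJC3 (an inhibitor of PERK), SEL1L (the adaptor of HRD1) and ERN1 were lower in thyroid tissue in 12 of 12 lambs, with PDIA5 at 233 ± 63.4 per kilobase in BAT and 121 ± 21.3 in thyroid tissue. Averaged over the 3 groups, 6 genes were higher in thyroid tissue and 0 lower (14.2% and 25% of all genes): DERL3 (with the limit given above), ERO1B (3.57 ± 0.21), HERPUD1 (1.93 ± 0.16), SIL1 (1.28 ± 0.14), DNAJB9 (1.14 ± 0.16) and SDF2L1 (1.09 ± 0.33). With the lamb as a block SDF2L1 fell short (0.73, edgeR adjusted p = 0.0881). The scaling mattered here: with DESeq2's median-of-ratios size factors, 12 genes were higher at AT, 5 under cold and 16 over the mean of the groups. The shares over all genes with that scaling were 18.6%, 18% and 18.5%. Relative to all genes, the set then stood 0.51 higher in thyroid tissue at AT, against 0.53 with the reference genes.

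In the controls, 17 genes were higher in thyroid tissue and 0 lower (14.1% and 16.4% of all genes), and the values again rested on Control 3. With Control 2 in its place, 6 were higher and 9 lower (13% and 16.5% of all genes), so the count of higher genes was near the share of all genes. The median log2 difference of the set was 0.87 with Controls 1 and 3 (all genes −0.06). With Control 1 as the only control it was 0.15 (all genes −0.21). With the lamb as a block, 14 of the 17 passed, without HYOU1 (1.07, edgeR adjusted p = 0.091), SDF2L1 (1.82, adjusted p = 0.124) and SYVN1 (0.80, adjusted p = 0.0818). ERO1B, HERPUD1, SIL1 and CREB3L2, and DERL3 with the same limit, were called in the controls whichever lamb was left out.

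**Figure D4:**
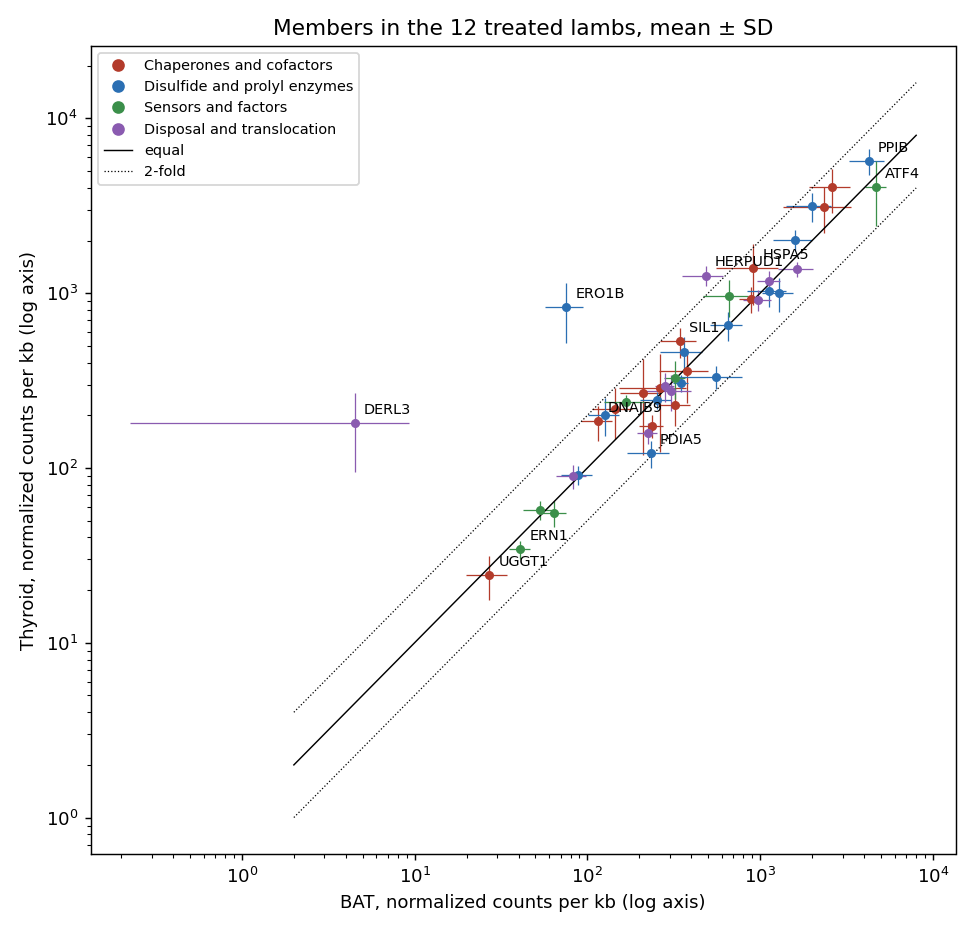
Normalized counts per kilobase of gene length in BAT (x, log axis) and thyroid tissue (y, log axis) for each gene of the set, mean ± SD of the 12 treated lambs, with lines for equal levels and for 2-fold differences. The other genes lie between the 2-fold lines, while ERO1B, HERPUD1 and DERL3 lie above them, and for DERL3 (4.5 ± 4.81 in BAT) the lower end of the BAT error bar falls below 0 and is drawn only to just above it.

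Between genes, levels were compared per kilobase. In thyroid tissue of the treated lambs PPIB led (5725.5 ± 959 normalized counts per kilobase, mean ± SD, n = 12), followed by ATF4 (4062 ± 1639), CALR (4023 ± 1135), PDIA3 (3136 ± 589), HSP90B1 (3115 ± 910), P4HB (2017 ± 277) and HSPA5 (1386 ± 526). In BAT ATF4 led (4677 ± 657), followed by PPIB (4246 ± 963), CALR (2612 ± 703), HSP90B1 (2347 ± 991) and PDIA3 (1991 ± 573), with HSPA5 at rank 12 (915 ± 357). UGGT1 was lowest in thyroid tissue (24.4) and lowest but for DERL3 in BAT (27.1). Few neighbours in these orders were apart by more than the larger of their SDs, 7 of 42 neighbouring pairs in BAT and 8 of 42 in thyroid tissue. In thyroid tissue PPIB stood apart from ATF4, HSP90B1 from P4HB and P4HB from HSPA5, while the steps from ATF4 to CALR, from CALR to PDIA3 and from PDIA3 to HSP90B1 were within the spread.

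Summed over the 43 genes, the level was 25526.5 to 45570 normalized counts per kilobase in BAT of the treated lambs (median 31777) and 30337 to 48770 in thyroid tissue (median 39083). Within a lamb, the thyroid sum was a median of 1.21 times the BAT sum, from 0.822 to 1.76 times, and was higher in 10 of 12 lambs. These sums use the reference-gene scale and were not computed with another. With median-of-ratios scaling the set's median log2 difference was 0.57 at AT and 0.40 under cold, against 0.17 and 0.05, so the ratio depends on the scaling. In the controls the ratio was 1.25 in Control 1, 3.43 in Control 3 and 0.299 in Control 2. TG alone stood at a median of 3.82 times the summed level of the 43 genes in thyroid tissue of the treated lambs (2.08 to 5.21 times). In the controls TG stood at 3.04 times (Control 1), 2.33 times (Control 3) and 2.33 times (Control 2) their sum.

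The remaining genes of the secretory pathway were followed in 6 lists of 120 genes, of which 115 were tested in BAT and 117 in thyroid tissue. In BAT, 1 gene was lower under cold, MLEC, which reads the first glucose trimming of glycans (log2FC −1.13 ± 0.22, edgeR adjusted p = 0.0242), and 5 were lower at AT. These were MLEC (−1.17), SPCS3 of the signal peptidase (−1.02), the collagen chaperone SERPINH1 (−1.40), PPP1R15A, which reverses the translation arrest of PERK (−1.14), and SAR1B, a GTPase of vesicle budding (−1.20). Over all genes tested in BAT, 0.624% and 3.19% were lower, and the counts of the lists became 0 and 0 with Control 1 as the only control and 10 and 13 when Control 2 replaced Control 3. In thyroid tissue, 35 genes were lower under cold and 38 at AT, with a median of −0.78 and −0.77, and none was called higher. Over all genes tested in thyroid tissue, 6.15% and 5.98% were lower, with a median of −0.28 in both comparisons. With Control 2 in place of Control 3, 6 and 4 were lower and 1 was higher in each comparison, with a median of −0.21 and −0.22, so these counts too rested on Control 3.

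By list, the counts in thyroid tissue are read against those shares of 6.15% under cold and 5.98% at AT. Of the ER-to-Golgi transport genes, 11 of 24 were downregulated under cold and 12 at AT, with coat subunit SEC24D at −1.69 ± 0.23 (edgeR adjusted p = 0.0011) and −1.77 ± 0.23 (adjusted p = 0.000714). Of the translocon and signal peptidase genes 9 and 11 of 21 were downregulated, among them SRPRB, a subunit of the receptor for the signal recognition particle (−1.67 and −1.72). The oligosaccharyltransferase and glycan trimming list had 8 and 7 of 16, with DAD1 at −1.42 and −1.34. Of the other regulators of the unfolded protein response, 4 and 3 of 19 were called, with ATF3, a stress-induced factor (−2.79 ± 0.68 and −2.05 ± 0.69), and CREB3L1 (−1.84 and −1.87). The other ER folding genes had 1 and 2 of 23 called, near the share of all genes, and the other degradation genes 2 and 3 of 14, led by SELENOS, a selenoprotein of the degradation channel (−1.56 ± 0.18, adjusted p = 0.000538, and −1.58 ± 0.18, adjusted p = 0.000484). SELENOS was called also with Control 1 as the only control and with Control 2 in place of Control 3, under cold and at AT. For cold against AT, edgeR called none of these genes in either tissue, with 7 of 115 in BAT and 4 of 117 in thyroid tissue at an unadjusted p under 0.05.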

How the data were processed

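The authors extracted RNA with TRIzol, selected mRNA with oligo(dT), sequenced read pairs on a BGISEQ-500, trimmed with Trimmomatic 0.39 after FastQC 0.11.9, aligned with STAR 2.7.7a to Oar_rambouillet_v1.0 and assigned reads with featureCounts (Subread 2.0.0), multi-mapping reads included. The deposited values are whole-number counts per gene and library, not normalized. Reads of near-identical copies were therefore shared, and the strand setting is not given in the sources used here, so antisense and overlapping genes are uncertain. Per-lamb values of the study, matched to the counts, showed which 2 controls it used.

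Genes had to reach 10 reads in 10 or more libraries and were tested by edgeR 4.0.16 (R 4.3.3; robust quasi-likelihood fit) with size factors from ACTB, RPL19 and HUWE1, in 1 fit per tissue (14 libraries) and in 1 fit of both tissues (28 libraries) for tissue differences and interactions. Errors of log2FC are standard errors of the fit. DESeq2 1.42.0 was an alternative. Lambs are separate animals of a group. Both tissues of a lamb share its identifier in the labels, which gives the pairing. Across genes, the deviations of a lamb from its group in BAT and thyroid tissue correlated at 0.0456 to 0.327 (14 lambs, above 0.1 in 13). Within a tissue no pairing exists. The lowest chi-square per degree of freedom between libraries was 51.8 in BAT and 36 in thyroid tissue, so no library occurred a second time. Scripts were tested on simulated data.

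The genes, lists and tests were chosen with earlier results of these data known. Named are all genes of the set by role, at most the 2 largest calls per direction of each pathway list, the genes that a count of 5 or fewer covers, TG, UCP1 and the reference genes. The 6 genes plotted per lamb were chosen after their values were seen. Fold changes computed by the authors were not used.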

Additional observations from a re-analysis of the deposited data

Results flagged for a closer look

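In 13 of 171 groups of 6 lambs, 1 lamb lay far from the other 5. Chance flags about 1 in 20 independent groups. These groups are genes measured in the same lambs and are not independent, so no excess is read from the count. In BAT, AT 4 was the high lamb for HYOU1 (797 normalized counts), ERO1B (121), DNAJC10 (1006), HERPUD1 (883), SYVN1 (1126) and SEC61A1 (3016), and Cold 4 was high for HERPUD1 (809). In thyroid tissue, AT 4 was high for ERO1B (4313), DNAJB9 (870) and DERL3 (524), AT 3 for ATF4 (20775), and Cold 4 for DNAJB11 (1099) and DDIT3 (664). The thyroid libraries of AT 4 and Cold 4 held 268015 and 184460 normalized counts of C cell genes, the highest of their groups. Other thyroid libraries held 229 to 120980, with AT 5 at 120980, AT 2 at 67415 and Control 2 at 72357, and the part of these cells was not tested.

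The difference from the controls differed between the tissues in 4 tests (thyroid tissue minus BAT, log2 scale): SIL1 under cold (−1.79), and SIL1 (−2.02), HERPUD1 (−1.72) and ERO1A (1.16) at AT. With Control 2 in place of Control 3, ERO1A alone of these passed at AT, and the value of HERPUD1 was 0.042.

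The library of the control that the study left out, which no comparison uses unless named, exceeded both other controls in 27 of the 43 listed genes in BAT and in 2 in thyroid tissue.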

How the results depend on the processing

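Numbers are genes of the set called, and the share called over all genes also moved with the setting. Leaving out each lamb in turn gave 2 to 11 genes in BAT under cold, 9 to 17 in BAT at AT, 5 to 33 in thyroid tissue under cold and 4 to 34 at AT, 0 to 0 for cold against AT in both tissues, 12 to 19 for thyroid tissue against BAT in the controls, 3 to 4 at AT, 3 to 5 under cold and 4 to 7 over the mean, and 0 to 3 and 2 to 7 for the interactions under cold and at AT. In BAT under cold, all 3 controls gave 9 (2.17% of all genes called lower), and 13 with TMM scaling added. In BAT at AT, all 3 controls with TMM gave 20, and the adjusted p alone gave 19 (6.1% of all genes lower). In thyroid tissue under cold, TMM gave 19 (2.08% of all genes called lower), median-of-ratios scaling 19 (2.05%) and all 3 controls with TMM 14. At AT these gave 19 (1.67%), 20 (1.68%) and 13. For thyroid tissue against BAT in the controls, all 3 controls gave 9, also with TMM 9, Control 1 alone 6 and Control 3 alone 26. At AT, median-of-ratios gave 12, all 3 controls with TMM 9 and the adjusted p alone 16, and under cold the adjusted p alone gave 15. Over the mean, TMM gave 10, median-of-ratios 16, Control 3 alone 10 and the adjusted p alone 25. The interaction under cold gave 0 with TMM, median-of-ratios, no filter or Control 1 alone, 2 with DESeq2 and 3 with Control 3 alone, and that at AT 7 with DESeq2, 0 with Control 1 alone and 6 with Control 3 alone.

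Where a call was involved, directions turned only with the controls used. The signs of other genes also moved with the scaling. For thyroid tissue against BAT at AT, 15 of 43 genes were lower with the reference genes, 7 with TMM and 5 with median-of-ratios scaling. Under cold these counts were 20, 12 and 7. For thyroid tissue against BAT in the controls, HSP90B1 and PDIA4 became −0.54 and −0.43 with all 3 controls, −0.77 and −0.66 with TMM added, and −0.69 and −0.54 with Control 2 in place of Control 1. With Control 1 alone, HYOU1 became −0.23, SDF2L1 −0.044 and SYVN1 −0.11. The ranges with each lamb left out, whose value of the other sign is the one with Control 2 in place of Control 3 (for HSP90B1 and PDIA4 in the controls also of Control 1), were HSPA5 −3.53 to 1.62, PDIA6 −1.01 to 0.89, HSP90B1 −1.95 to 1.5, DNAJB9 −0.66 to 2.10, PDIA4 −1.89 to 1.57, CANX −1.32 to 0.71, CALR −0.82 to 1.52, P4HB −0.15 to 1.55, HYOU1 −0.31 to 1.74, ERP29 −1.60 to 0.29, SDF2L1 −0.016 to 2.80, PDIA3 −0.29 to 1.53, MANF −1.24 to 1.36 and FKBP2 −0.24 to 1.34 for thyroid tissue against BAT in the controls, HSPA5 −1.30 to 4.02 for the interaction under cold, and HSPA5 −1.10 to 4.20, HSP90B1 −0.82 to 2.65, PDIA4 −1.22 to 2.33, CANX −0.71 to 1.35 and HERPUD1 −1.80 to 0.042 for that at AT. The cause was not tested.

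With the lamb as a replicate block, pairing both tissues, 14 genes were called in the controls, 3 at AT, 4 under cold and 5 over the mean, and 1 and 2 in the interactions. The block changed no call but the 5 given in the report. Adding the RNA integrity number as a covariate gave 30 and 29 calls in thyroid tissue. With 2 controls, every value against the controls rests on few lambs, and depth limits mainly DERL3 in BAT.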
